A study of Homo sapiens with 3 samples.

Results

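The 50 genes described here lie side by side on the short arm of human chromosome 1, in band 1p35, from RCC1 to ZNF362. They were selected on their signals in 3 cell lines, as neighbours that tended to be higher together in the line named RECK, so their ratios are given as a description. A probe set annotated with 1 gene symbol was found for 49 of the 50, of 19775 genes with such a probe set in all. YTHDF2, a reader of N6-methyladenosine in messenger RNA, had none in the annotation used. KIAA1522 is carried there under its current name, NHSL3. The probe set with the highest mean log2 signal stands for each gene.

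All 3 lines derive from HT1080, an established human fibrosarcoma cell line. The RECK line had been stably transfected with RECK in the vector pZeoSV2(+), the RECK/4NQ line with a form of RECK in which glutamine replaces 4 N-glycosylated asparagines, and the Zeo line was mock-transfected. All were grown in 10% fetal calf serum with 50 µg/mL Zeocin, the drug that selects for the vector. Whether a line grew from 1 clone or from pooled cells is not stated in the labels. Total RNA of each line was hybridised to 1 Affymetrix array, so there is no replicate, no test and no p-value. An effect of the transgene and any other difference between these lines cannot be told apart. RECK itself, a membrane-anchored inhibitor of metalloproteinases, had a signal of 387 in the RECK line, 442 in the RECK/4NQ line and 264 in the Zeo line by the brightest of its 5 probe sets, and the others stayed at or below 26.2. The next brightest read 21.0 in RECK, 19.8 in RECK/4NQ and 21.7 in Zeo. Another read 18.2 in RECK, 12.4 in RECK/4NQ and 11.2 in Zeo. A further probe set read 17.9 in RECK, 25.1 in RECK/4NQ and 5.64 in Zeo. The last read 2.08 in RECK, 11.3 in RECK/4NQ and 26.2 in Zeo. The dim probe sets thus had no common order. By its name the brightest is a shared probe set, a type that may match more than 1 transcript. The mesenchymal marker VIM was at 10704 in RECK, 10611 in RECK/4NQ and 10307 in Zeo, and the dimmest of the 7 mesenchymal markers was at 45.9 in RECK, 50.7 in RECK/4NQ and 47.6 in Zeo. They did not move together: TGFBI was at 7127 in RECK, 2620 in RECK/4NQ and 1649 in Zeo, and CD44 at 2735 in RECK, 4147 in RECK/4NQ and 3388 in Zeo. The epithelial marker EPCAM was at 3.60 in RECK, 1.52 in RECK/4NQ and 0.68 in Zeo. KRT18, a keratin on the epithelial list, was at 7371 in RECK, 8807 in RECK/4NQ and 9895 in Zeo. The summed signal of all probe sets was 11372200 in the RECK line, 12349800 in the RECK/4NQ line and 12517000 in the Zeo line. The spiked hybridisation controls had a mean log2 ratio of RECK over Zeo of 0.34 ± 0.17 (SD over 18 probe sets). For RECK over RECK/4NQ the controls were at 0.39 ± 0.13, and for RECK/4NQ over Zeo at -0.05 ± 0.12. The controls thus read higher on the RECK array than on both others. Whether array scale has a part in the ratios below was examined only by rescaling the arrays. In bulk RNA such as this, fewer cells that express a gene and less RNA per cell cannot be told apart.

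Genes that neighbour each other on a chromosome usually belong to unrelated pathways, and this stretch is an example. It holds core subunits of histone deacetylase, translation and splicing complexes beside receptors, matrix proteins and genes known from blood cells or neurons. What neighbours have in common is a stretch of DNA and, for a few of them that start back to back, a shared promoter region.

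As a block the listed genes read higher in the RECK line than in the Zeo line, and the shift was small for most of them. Signals under 12.2, the 40th percentile of the values on the arrays, were raised to that floor, and 47 of the 49 genes averaged at least this much. In log2 terms their median ratio of RECK over Zeo was 0.29, a 1.22-fold difference, while the median of all 14289 genes at such levels was -0.20. Relative to all genes the block therefore stood at 0.48, with its middle 50% of genes between 0.20 and 0.84. Of the 47 genes 38 lay above the median of all genes (50% of all genes do). The same number lay above the median of genes of like level, where 50.3% of all genes did.

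Relative to the RECK/4NQ line the picture was alike, with a block median of 0.40 above that of all genes and 37 of 47 genes above it (50% of all genes). Against genes of like level the count was also 37, where 49.9% of all genes lay above. Both comparisons use the same RECK array, so they are not separate observations. The comparison of RECK/4NQ with Zeo does not involve that array, but it shares the Zeo array with RECK over Zeo. It is therefore not a separate observation either. There the block stood at 0.18 with 31 of 47 genes above the median of all genes (50%) and 30 above that of genes of like level (50.1%). In the plot of signals by gene, 30 of the 47 genes were brightest on the RECK array, 11 on the RECK/4NQ array and 6 on the Zeo array. Among all genes at or above the floor these shares were 24.9%, 29.9% and 45.2%.

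**Figure D1:**
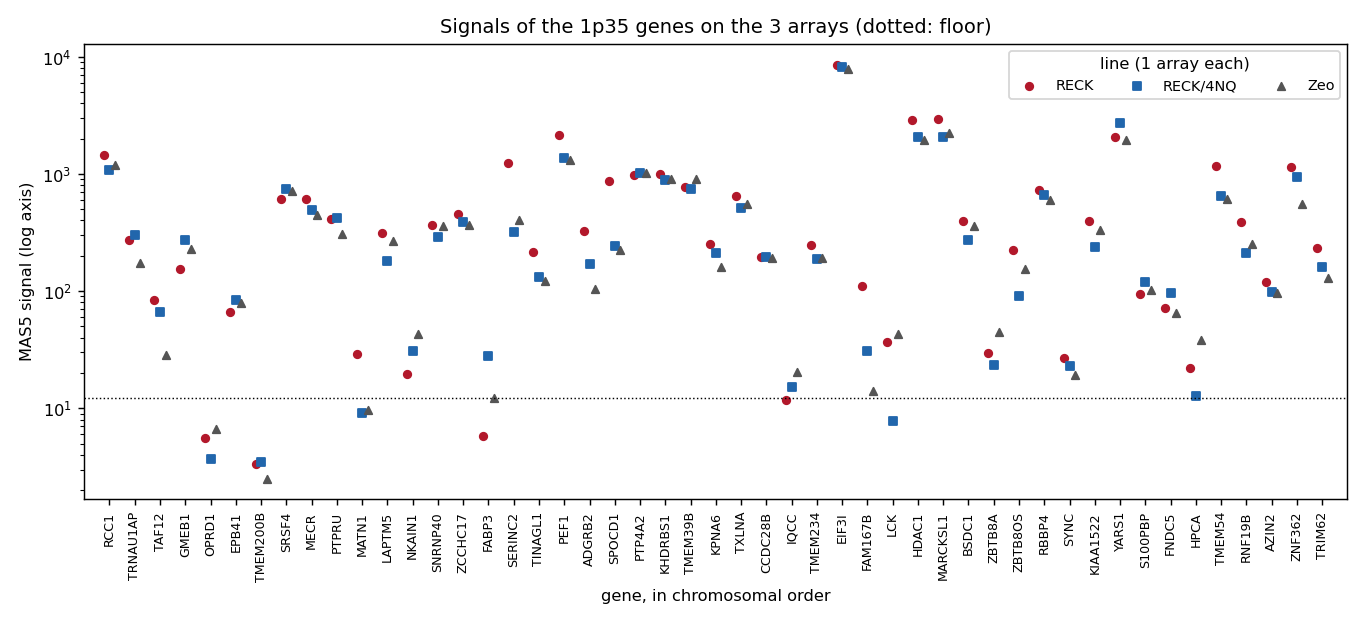
MAS5 signal (vertical, log axis) of the brightest probe set of each of the 49 genes, in chromosomal order, with 1 point per line: RECK (circles), RECK/4NQ (squares) and Zeo (triangles). The dotted line is the floor of 12.2. There are no error bars because each line has 1 array. The RECK point is the highest for most genes, with the widest gaps at SERINC2, SPOCD1 and FAM167B.

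Few single genes reached a 2-fold difference. To be called higher or lower, a gene needed a 2-fold difference between signals that both reached the floor, or 1 signal under the floor while the other was 2 times the floor or more. For RECK over Zeo 7 of the 49 genes were higher (14.3%, where 4.03% of all 19775 genes were) and 1 was lower (6.71% of all genes were). For RECK over RECK/4NQ 6 were higher and 1 was lower, against 5.77% and 4.48% of all genes. For RECK/4NQ over Zeo 3 were higher and 2 were lower, against 2.82% and 7.14%. The genes were selected on the signals of all 3 lines for being higher in RECK, so nothing is read from the counts of any comparison. The same shares of all genes are the background for each group of genes below. At 1.5-fold 14, 14 and 6 members were higher in these comparisons, against 9.38%, 13.7% and 7.9% of all genes. Each ratio was also set against a robust spread, the scaled median absolute deviation among 1000 genes of like level. By that scale 13 of 47 genes lay over 2 spreads above the median of their level for RECK over Zeo (4.8% of all genes did) and 0 over 2 spreads below it (3.11% did). For RECK over RECK/4NQ 11 lay above by that much (4.56%) and 0 below (3.11%), and for RECK/4NQ over Zeo 4 above (3.54%) and 0 below (3.19%).

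The 3 largest ratios of RECK over Zeo among genes at or above the floor on every array belonged to FAM167B, SPOCD1 and SERINC2. FAM167B, whose function is little known, had a signal of 109 in the RECK line, 30.9 in the RECK/4NQ line and 14.2 in the Zeo line. The Zeo value is close to the floor, so the 7.73-fold ratio to it is imprecise. SPOCD1, known in mouse for piRNA-directed DNA methylation in the male germ line, had signals of 861 in RECK, 242 in RECK/4NQ and 223 in Zeo, a 3.86-fold ratio of RECK to Zeo. Its second probe set read 199 in RECK, 205 in RECK/4NQ and 121 in Zeo, so it put both transfected lines above Zeo and RECK/4NQ slightly above RECK. SERINC2, of the serine incorporator family of membrane proteins, had signals of 1244 in RECK, 316 in RECK/4NQ and 403 in Zeo, a 3.09-fold ratio to Zeo and a 3.94-fold ratio to RECK/4NQ. Its other 3 probe sets had mean levels below the floor. The promoter windows of these genes are shown because their transcripts had the largest ratios. Each runs from 250 bases before to 50 after the start of a RefSeq transcript (GRCh38.p14), 5′ to 3′ in the direction of the gene, and SERINC2 is shown by the first of its 4 windows. Capitals mark matches on either strand to CCAAT, to GGGCGG (the GC box) and to CACGTG (the E-box), some of which may overlap, and no TATAAA was found in them.
FAM167B, chr1:32246972-32247271, plus strand: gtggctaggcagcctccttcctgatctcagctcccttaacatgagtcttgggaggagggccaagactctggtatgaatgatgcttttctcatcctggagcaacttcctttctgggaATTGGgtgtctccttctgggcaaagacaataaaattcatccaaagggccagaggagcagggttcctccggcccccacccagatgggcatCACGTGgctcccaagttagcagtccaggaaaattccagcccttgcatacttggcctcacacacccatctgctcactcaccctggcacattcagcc
SPOCD1, chr1:31815973-31816272, minus strand: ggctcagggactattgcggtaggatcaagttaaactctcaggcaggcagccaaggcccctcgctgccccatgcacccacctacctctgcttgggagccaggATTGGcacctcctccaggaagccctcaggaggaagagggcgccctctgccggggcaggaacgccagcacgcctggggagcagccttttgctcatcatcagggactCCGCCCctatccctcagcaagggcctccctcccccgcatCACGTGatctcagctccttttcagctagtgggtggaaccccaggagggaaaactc
SERINC2, chr1:31409527-31409826, plus strand: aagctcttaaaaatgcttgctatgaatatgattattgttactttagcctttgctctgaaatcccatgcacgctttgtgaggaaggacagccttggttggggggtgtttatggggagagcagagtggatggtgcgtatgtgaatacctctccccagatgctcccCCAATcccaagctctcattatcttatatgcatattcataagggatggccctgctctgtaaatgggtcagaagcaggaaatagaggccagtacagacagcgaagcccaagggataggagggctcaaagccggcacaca

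These 3 windows hold a CCAAT match each, and FAM167B and SPOCD1 hold CACGTG as well. GGGCGG is in the SPOCD1 window and in 2 of the 3 SERINC2 windows not shown. Windows were found for 44 of the 50 genes, 62 in all. GGGCGG occurred in 75.8% of them, against 61.7% of 16385 windows of genes at or above the floor on these arrays and 45.0% of all 35116 windows. Windows of genes below the floor or without a probe set, as YTHDF2, OPRD1 and TMEM200B, are among the 62 but not the 16385. TATAAA occurred in 1.61%, against 7.34% and 11.5%. CCAAT was in 43.5% of the windows of the block, against 34.4% and 34.6%, and CACGTG in 16.1%, against 9.01% and 7.26%. A match describes the letters only and says nothing of a factor bound there.

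SPOCD1 and SERINC2 bound a run of 5 listed genes that each read higher in the RECK line than in the others, a run singled out after its values were seen. From SERINC2 to SPOCD1 all 5 listed genes lay above the median of their level, at a median of 1.81 in log2 ratio relative to all genes. TINAGL1, a secreted matricellular protein, had signals of 215 in RECK, 131 in RECK/4NQ and 123 in Zeo, 1.75-fold above Zeo in RECK. PEF1, a calcium-binding protein with EF hands, was at 2144 in RECK, 1353 in RECK/4NQ and 1305 in Zeo, 1.64-fold above Zeo. For both genes the RECK/4NQ and Zeo values lay close together and the RECK value stood apart. ADGRB2, an adhesion G protein-coupled receptor, was graded instead, with 323 in RECK, 169 in RECK/4NQ and 105 in Zeo, a 3.07-fold ratio of RECK to Zeo. The collagen gene COL16A1, which lies inside this run without being listed, was at 82.9 in RECK, 43.9 in RECK/4NQ and 34.1 in Zeo. Other unlisted genes of the run did not read higher in RECK: LDC1P was at 40.03 in RECK, 24.0 in RECK/4NQ and 55.5 in Zeo, LINC01226 at 20.1 in RECK, 40.4 in RECK/4NQ and 21.5 in Zeo, and HCRTR1 was below the floor on every array. Relative to all genes the run stood at 1.00 for RECK over RECK/4NQ and at 0.22 for RECK/4NQ over Zeo. Without these 5 genes the block median of RECK over Zeo was 0.43.

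A second run of higher values lay at the far end of the block, again seen only in the data. The last 6 listed genes, from HPCA to TRIM62 in order of their starts, had a relative median of 0.92. The annotated spans of AZIN2, ZNF362 and TRIM62 overlap. TMEM54, a membrane protein of little known function, had signals of 1160 in RECK, 646 in RECK/4NQ and 616 in Zeo, 1.88-fold above Zeo in RECK. RNF19B, a ubiquitin ligase known from natural killer cells, was at 387 in RECK, 211 in RECK/4NQ and 253 in Zeo, and TRIM62, another RING-type ubiquitin ligase, was at 231 in RECK, 160 in RECK/4NQ and 129 in Zeo, a 1.79-fold ratio of RECK to Zeo. A second TRIM62 probe set gave nearly the same values, 216 in RECK, 160 in RECK/4NQ and 136 in Zeo. ZNF362, a zinc finger gene, differed from these in its pattern. It was at 1154 in RECK, 948 in RECK/4NQ and 553 in Zeo, 2.09-fold above Zeo in RECK, so both transfected lines lay above Zeo and the RECK/4NQ value was nearer to RECK. AZIN2, an antizyme inhibitor that acts on polyamine synthesis, differed little, with 120 in RECK, 98.0 in RECK/4NQ and 96.2 in Zeo. HPCA, a neuronal calcium sensor, went the other way, with 22.03 in RECK, 12.8 in RECK/4NQ and 38.5 in Zeo, a log2 ratio of RECK over Zeo of -0.80 between dim signals.

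Between these runs lie 22 genes from PTP4A2 to FNDC5 with a relative median of 0.35, of which 18 were above the median of their level and 1, FAM167B, was called higher. Before them, the 8 measured genes from RCC1 to PTPRU stood at 0.55 for RECK over Zeo and at -0.02 for RECK over RECK/4NQ, and the 6 genes from MATN1 to FABP3 at 0.32 and 0.35.

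Among genes of RNA processing and translation, 8 had a probe set and 0 were called higher (4.03% of all genes) or lower (6.71%) for RECK over Zeo, with a relative median of 0.33. EIF3I, a subunit of the translation initiation factor eIF3, was at 8528 in RECK, 8162 in RECK/4NQ and 7804 in Zeo. SNRNP40, a protein of the U5 splicing particle, was at 366 in RECK, 290 in RECK/4NQ and 358 in Zeo. Both genes differed little between the lines. TRNAU1AP, which acts in selenocysteine incorporation, had signals of 274 in RECK, 301 in RECK/4NQ and 175 in Zeo, with RECK/4NQ the highest. A second TRNAU1AP probe set read 109 in RECK, 34.6 in RECK/4NQ and 41.9 in Zeo and put RECK highest. YARS1, the cytoplasmic tyrosyl-tRNA synthetase, was highest in RECK/4NQ, at 2707, with 2068 in RECK and 1937 in Zeo. Its other probe set read 76.9 in RECK, 112 in RECK/4NQ and 88.0 in Zeo, with RECK the lowest. The splicing factor SRSF4 was lowest in RECK, at 611, with 739 in RECK/4NQ and 711 in Zeo. KHDRBS1, the RNA-binding protein SAM68, was at 1004 in RECK, 880 in RECK/4NQ and 911 in Zeo, but its next probe set read 483 in RECK, 377 in RECK/4NQ and 589 in Zeo. The zinc knuckle protein ZCCHC17 was at 456 in RECK, 386 in RECK/4NQ and 366 in Zeo. ZBTB8OS, an archease that serves the tRNA ligase complex, had a signal of 224 in RECK, 90.7 in RECK/4NQ and 154 in Zeo, a 2.47-fold ratio of RECK to RECK/4NQ.

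Of 10 genes of chromatin, transcription and nuclear transport, 3 were called higher for RECK over Zeo (TAF12, SPOCD1 and ZNF362; 4.03% of all genes were) and 0 lower (6.71%), with a relative median of 0.62. HDAC1, a histone deacetylase, was at 2870 in RECK, 2066 in RECK/4NQ and 1936 in Zeo, a 1.48-fold ratio of RECK to Zeo and 2.52 spreads above the median of its level. RBBP4, the histone-binding protein that joins HDAC1 in several complexes, was at 725 in RECK, 660 in RECK/4NQ and 593 in Zeo. By these probe sets both were thus highest in RECK by less than 1.5-fold. A dimmer RBBP4 probe set read 90.2 in RECK, 111 in RECK/4NQ and 109 in Zeo, with RECK the lowest. The TFIID subunit TAF12 had a signal of 84.2 in RECK, 66.4 in RECK/4NQ and 28.2 in Zeo, so it was 2.99-fold and 2.36-fold above Zeo in the transfected lines. KPNA6, an importin alpha that carries proteins into the nucleus, was at 254 in RECK, 212 in RECK/4NQ and 162 in Zeo. RCC1, the exchange factor that charges RAN with GTP at chromatin, was at 1446 in RECK, 1083 in RECK/4NQ and 1191 in Zeo by its brightest probe set and at 309 in RECK, 403 in RECK/4NQ and 340 in Zeo by the other, which went the opposite way. GMEB1, a DNA-binding protein that modulates glucocorticoid responses, was lowest in RECK, at 153, with 271 in RECK/4NQ and 226 in Zeo, a log2 ratio of RECK over Zeo of -0.56. A second GMEB1 probe set had the same order, with 102 in RECK, 163 in RECK/4NQ and 126 in Zeo. S100PBP was at 93.8 in RECK, 120 in RECK/4NQ and 101 in Zeo, and the zinc finger gene ZBTB8A at 29.9 in RECK, 23.5 in RECK/4NQ and 44.6 in Zeo, a log2 ratio of RECK over Zeo of -0.58. Other KPNA6 probe sets differed among themselves: those at 257 in RECK, 205 in RECK/4NQ and 117 in Zeo and at 174 in RECK, 167 in RECK/4NQ and 89.9 in Zeo also put RECK above Zeo, and 1 at 134 in RECK, 113 in RECK/4NQ and 128 in Zeo hardly did.

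Receptors, phosphatases, kinases and ubiquitin ligases included 7 genes with a probe set, of which ADGRB2 was called higher for RECK over Zeo (4.03% of all genes) and 0 were lower (6.71%). PTP4A2, a prenylated phosphatase, hardly differed, with signals of 986 in RECK, 1018 in RECK/4NQ and 1009 in Zeo, and its other 3 probe sets also lay within 1.5-fold. PTPRU, a receptor tyrosine phosphatase, was at 410 in RECK, 417 in RECK/4NQ and 304 in Zeo, with both transfected lines alike. LCK, a tyrosine kinase of T cells, was at 37.1 in RECK, 7.83 in RECK/4NQ and 43.1 in Zeo, which puts RECK at least 3.03-fold above RECK/4NQ. The other LCK probe set read 10.7 in RECK, 15.6 in RECK/4NQ and 58.1 in Zeo and gave no such order of these lines. The opioid receptor gene OPRD1 stayed below the floor on every array, at 5.63 in RECK, 3.71 in RECK/4NQ and 6.64 in Zeo. Of 9 leukocyte markers with a probe set 4 were below the floor in RECK, 4 in RECK/4NQ and 3 in Zeo. The brightest were CD79A, at 86.2 in RECK, 96.2 in RECK/4NQ and 121 in Zeo, and FCER1G, at 80.5 in RECK, 124 in RECK/4NQ and 112 in Zeo. PTPRC was at 11.1 in RECK, 9.12 in RECK/4NQ and 17.8 in Zeo, and the summed signal of the 9 was 273 in RECK, 350 in RECK/4NQ and 379 in Zeo. LAPTM5, a lysosomal membrane protein best known from blood cells, was at 311 in RECK, 179 in RECK/4NQ and 269 in Zeo. Its other probe set read 155 in RECK, 120 in RECK/4NQ and 165 in Zeo, with Zeo the highest.

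The 14 genes of membrane, vesicle and cytoskeleton proteins had 1 called higher (SERINC2; 4.03% of all genes) and 1 called lower (NKAIN1; 6.71%) for RECK over Zeo, with a relative median of 0.41. MARCKSL1, an actin-regulating membrane protein of the MARCKS family, was at 2929 in RECK, 2055 in RECK/4NQ and 2246 in Zeo. The syntaxin-binding protein TXLNA was at 646 in RECK, 510 in RECK/4NQ and 555 in Zeo. Both had their highest value in RECK and their lowest in RECK/4NQ. The same order held for BSDC1, at 398 in RECK, 272 in RECK/4NQ and 356 in Zeo, and for TMEM234, at 246 in RECK, 189 in RECK/4NQ and 193 in Zeo. Dimmer TMEM234 probe sets did not give it. They read 68.8 in RECK, 23.2 in RECK/4NQ and 17.4 in Zeo, and 29.8 in RECK, 30.2 in RECK/4NQ and 31.2 in Zeo. NKAIN1, which interacts with the sodium-potassium pump, was lowest in RECK, at 19.7, with 30.5 in RECK/4NQ and 42.8 in Zeo, 2.18-fold lower in RECK than in Zeo. EPB41, the membrane skeleton protein 4.1, was at 66.5 in RECK, 84.6 in RECK/4NQ and 79.0 in Zeo, with a log2 ratio of RECK over Zeo of -0.25. TMEM39B was at 777 in RECK, 740 in RECK/4NQ and 907 in Zeo, and CCDC28B, known from ciliary disease, at 195 in RECK, 197 in RECK/4NQ and 193 in Zeo. SYNC, an intermediate filament protein of muscle, was at 26.8 in RECK, 22.8 in RECK/4NQ and 19.1 in Zeo, and TMEM200B was below the floor throughout, at 3.33 in RECK, 3.47 in RECK/4NQ and 2.51 in Zeo.

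Among the remaining genes, MATN1, a cartilage matrix protein, had a signal of 28.8 in RECK and was below the floor in RECK/4NQ and Zeo, at 9.15 and 9.75, which makes RECK at least 2.35-fold higher than Zeo. Its other probe set read 11.8 in RECK, 23.3 in RECK/4NQ and 2.78 in Zeo and gave RECK/4NQ as the highest. FNDC5, the precursor of irisin, was at 71.0 in RECK, 96.2 in RECK/4NQ and 65.4 in Zeo. MECR, an enoyl reductase of mitochondrial fatty acid synthesis, was at 615 in RECK, 493 in RECK/4NQ and 445 in Zeo. FABP3, a fatty acid-binding protein of heart and muscle, was above the floor only in RECK/4NQ, at 27.7, with 5.84 in RECK and 12.2 in Zeo. KIAA1522 was at 394 in RECK, 237 in RECK/4NQ and 331 in Zeo, and IQCC at 11.8 in RECK, 15.1 in RECK/4NQ and 20.3 in Zeo.

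Of the members' other probe sets, 35 averaged at least the floor. For RECK over Zeo 23 of these lay above the median of all genes, at a relative median of 0.15, and 28 lay on the same side of it as the brightest probe set of their gene. For RECK over RECK/4NQ the counts were 22 and 24, with a relative median of 0.21. The median subtracted here is that of the brightest probe sets of all genes. These values therefore lack a matched background, and their size is not compared with that of the brightest. Level also bears on the spread: over the 28 members with a mean signal above 200, log2 ratios of RECK over Zeo had an SD of 0.52 and a relative median of 0.50, and 25 of them lay above the median of their level. Over the other 19 the SD was 1.00 and the relative median 0.31, with 13 above.

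Pairs of members that start back to back from opposite strands share the DNA between their starts. Of the windows found, 3 pairs had starts within 1000 bases of each other. The starts of ZCCHC17 and SNRNP40 are 244 bases apart, those of EIF3I and TMEM234 54, and those of RBBP4 and ZBTB8OS 276. The window of the gene on the plus strand is shown for each pair, because transcripts of both genes start from it or just beside it, with capitals for the same motifs.
ZCCHC17, chr1:31296782-31297081, plus strand: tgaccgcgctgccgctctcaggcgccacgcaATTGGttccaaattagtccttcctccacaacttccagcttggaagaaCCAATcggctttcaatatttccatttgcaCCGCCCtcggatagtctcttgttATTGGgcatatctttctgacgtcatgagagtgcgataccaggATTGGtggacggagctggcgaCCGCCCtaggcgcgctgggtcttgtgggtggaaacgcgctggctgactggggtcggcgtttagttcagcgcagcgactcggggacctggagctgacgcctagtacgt
EIF3I, chr1:32222157-32222456, plus strand: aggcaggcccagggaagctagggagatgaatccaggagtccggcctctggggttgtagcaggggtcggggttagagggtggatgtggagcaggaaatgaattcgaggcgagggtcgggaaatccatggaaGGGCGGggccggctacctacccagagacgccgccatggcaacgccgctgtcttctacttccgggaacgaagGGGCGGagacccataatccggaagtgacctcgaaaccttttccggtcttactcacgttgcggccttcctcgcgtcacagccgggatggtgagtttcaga
RBBP4, chr1:32650958-32651257, plus strand: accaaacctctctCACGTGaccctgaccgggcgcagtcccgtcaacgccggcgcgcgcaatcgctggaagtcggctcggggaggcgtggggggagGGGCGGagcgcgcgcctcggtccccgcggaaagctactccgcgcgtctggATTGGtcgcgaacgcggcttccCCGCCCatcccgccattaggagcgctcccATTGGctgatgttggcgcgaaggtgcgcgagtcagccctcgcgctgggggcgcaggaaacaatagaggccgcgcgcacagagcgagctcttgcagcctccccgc

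Log2 ratios of RECK over Zeo, as deposited, were 0.32 for ZCCHC17 and 0.03 for SNRNP40, 0.13 for EIF3I and 0.35 for TMEM234, and 0.29 for RBBP4 and 0.54 for ZBTB8OS. All 6 lay above the median of all genes. For RECK over RECK/4NQ the genes of the last pair differed, at 0.14 for RBBP4 and 1.30 for ZBTB8OS. GGGCGG occurs in each of the 3 windows, CCAAT in those of ZCCHC17 and RBBP4, and CACGTG in that of RBBP4.

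The list does not hold every gene of the stretch. A further 15 genes with a probe set lie between RCC1 and the end of the last listed gene, 10 of them at or above the floor. Unlike the listed genes, these were not selected for higher signals in RECK, so gaps to the listed genes are description only. The unlisted genes had a relative median of 0.10 for RECK over Zeo, against 0.48 for the listed genes, with 6 of 10 above the median of all genes. It turned to -0.28 with a floor at the 20th percentile and to -0.11 without shared probe sets. The order was the opposite for RECK over RECK/4NQ, with 0.89 for the unlisted genes (7 of 10 above) and 0.40 for the listed genes. Of the 15, 3 were called higher (4.03% of all genes) and 0 lower (6.71%) for RECK over Zeo. These were COL16A1, the heparan sulfate proteoglycan gene SDC3, at 156 in RECK, 82.0 in RECK/4NQ and 44.8 in Zeo, and MATN1-AS1, at 40.1 in RECK, 18.3 in RECK/4NQ and 18.5 in Zeo. RAB42, a small GTPase, was at 64.4 in RECK, 14.7 in RECK/4NQ and 46.3 in Zeo, and DCDC2B, a doublecortin domain gene, at 39.6 in RECK, 6.39 in RECK/4NQ and 55.0 in Zeo. Further genes passed 2-fold only in comparisons with RECK/4NQ: FAM229A at 3.31 in RECK, 43.2 in RECK/4NQ and 13.1 in Zeo, and LDC1P and LINC01226 with the values given above. With all 57 measured genes of the interval, listed or not, the relative median was 0.47.

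The genes just outside the stretch had smaller median shifts. They were not selected for higher signals in RECK as the listed genes were, so the gap is a description only. By share above the median of all genes, those before RCC1 stood at 63.0% and those after ZNF362 at 87.5%. The listed genes stood at 80.9%. The 30 genes before RCC1 had a relative median of 0.17 for RECK over Zeo (17 of 27 measured above the median of all genes), and the 30 after ZNF362 one of 0.29 (21 of 24). Of these, 0 and 2 were called higher (4.03% of all genes), and 2 and 1 lower (6.71%). The nearest gene on either side had a lower signal in RECK than in Zeo, by less than the median of all genes. PHACTR4, a regulator of protein phosphatase 1, was at 483 in RECK, 558 in RECK/4NQ and 538 in Zeo, and PHC2, a Polycomb protein, at 3824 in RECK, 4654 in RECK/4NQ and 3991 in Zeo. Against genes of like level their log2 ratios of RECK over Zeo were 0.06 and 0.11. Further before RCC1, MED18 was at 81.8 in RECK, 69.6 in RECK/4NQ and 94.3 in Zeo, SESN2, a stress-induced sestrin, at 579 in RECK, 351 in RECK/4NQ and 451 in Zeo, ATP5IF1 at 1081 in RECK, 1066 in RECK/4NQ and 936 in Zeo, and DNAJC8 at 246 in RECK, 186 in RECK/4NQ and 222 in Zeo. Beyond PHC2, PHC2-AS1 was at 3.94 in RECK, 7.13 in RECK/4NQ and 30.9 in Zeo, ZSCAN20 at 40.5 in RECK, 32.4 in RECK/4NQ and 67.6 in Zeo, CSMD2 at 60.1 in RECK, 41.5 in RECK/4NQ and 45.3 in Zeo, and HMGB4 at 4.16 in RECK, 18.9 in RECK/4NQ and 2.49 in Zeo. For RECK/4NQ over Zeo the flanks stood at -0.15 before RCC1 and 0.13 after ZNF362.

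**Figure D2:**
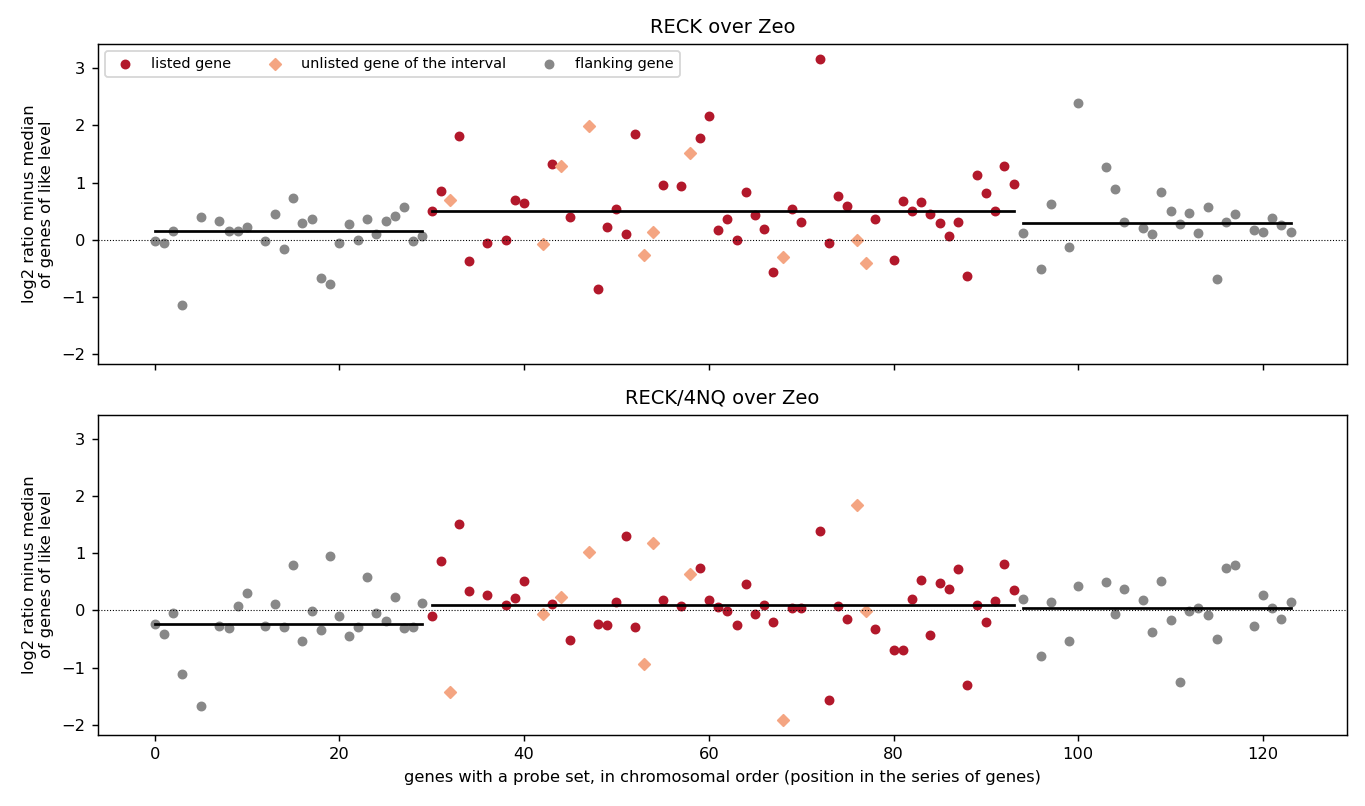
Log2 ratio of each gene at or above the floor, minus the median ratio of the 1000 genes nearest in level (vertical), for genes in chromosomal order (horizontal): the listed genes, unlisted genes between them and 30 flanking genes on each side. Black bars are medians: 0.50 for the listed genes, 0.15 before and 0.29 after for RECK over Zeo (top), and 0.10, -0.24 and 0.04 for RECK/4NQ over Zeo (bottom).

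The higher readings in RECK were not limited to the listed genes. When the genes of chromosome 1 at or above the floor were taken in order in groups of 30, counted outward from the block, the 5 groups before it and the 4 groups after it all had a median ratio of RECK over Zeo above that of genes of like level. These 9 medians lay between 0.11 and 0.34 in log2, and the 57 genes of the block itself at 0.50. The block holds genes selected for higher signals in RECK and the groups do not, so this gap is a description only. The run extends from EPHA2-AS1 to PRDX1. The next groups on either side, NPPA to EPHA2 and NASP to SPATA6, were at -0.07 and -0.18. Over all 37 groups elsewhere on the chromosome the medians ranged from -0.35 to 0.16, with 11 above 0. For RECK over RECK/4NQ the same 9 groups were between 0.07 and 0.46, and the block was at 0.48, close to the highest group. That group, RUNX3 to ARID1A, had 86.7% of its genes above the median of their level. The block had 75.4%, and all genes 49.9%. For RECK/4NQ over Zeo the 9 groups were between -0.25 and 0.05, and the block was at 0.10. The limits of these groups depend on where counting starts, so the ends of the run are known only to within a group.

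**Figure D3:**
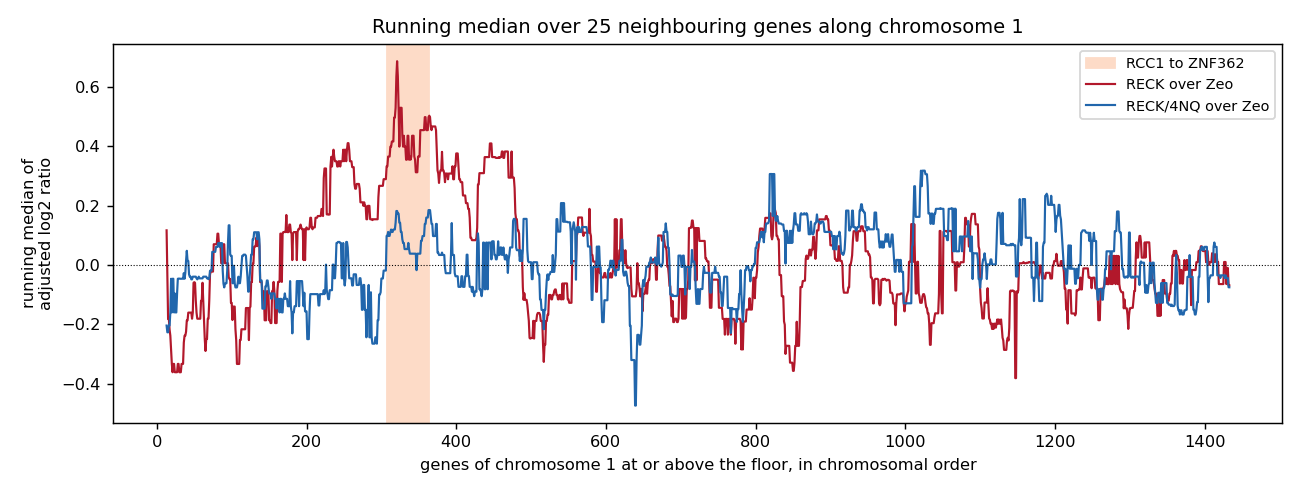
Running median over 25 neighbouring genes of the log2 ratio minus that of genes of like level (vertical), along the genes of chromosome 1 at or above the floor in chromosomal order (horizontal), for RECK over Zeo (red) and RECK/4NQ over Zeo (blue). The shaded band is RCC1 to ZNF362. The red line is above 0 across a wide stretch around the band, and the blue line lies below it across the band.

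Several members work in complexes whose other subunits are encoded elsewhere, which allows the block to be set beside its partners. Over 9 such lists, 88 partner genes at or above the floor had a relative median of -0.08 for RECK over Zeo, with 34 above the median of all genes. The 11 members they belong with had a median of 0.47, with 10 above. The members were selected for higher signals in RECK and the partners were not. The gap between them, here and in the other comparisons, is thus a description and supports nothing. HDAC1 and RBBP4 stood at 0.76 and 0.48, each above 16 of the 18 other genes of the NuRD, SIN3 and related deacetylase complexes, whose median was -0.13. Of those, SAP30 was called higher, at 626 in RECK, 233 in RECK/4NQ and 276 in Zeo, and GATAD2B was at 192 in RECK, 353 in RECK/4NQ and 353 in Zeo. EIF3I stood at 0.32, above all 11 other eIF3 subunits measured, whose median was -0.05, with EIF3J at 116 in RECK, 142 in RECK/4NQ and 180 in Zeo and EIF3A at 214 in RECK, 178 in RECK/4NQ and 313 in Zeo. TAF12 stood at 1.77, above all 12 other TFIID genes, whose median was -0.15, with TAF2 at 14.8 in RECK, 19.4 in RECK/4NQ and 49.1 in Zeo and TAF1 at 30.8 in RECK, 34.9 in RECK/4NQ and 55.6 in Zeo. KPNA6 and RCC1, at 0.84 and 0.47, were above all 11 other importin and RAN cycle genes, whose median was -0.07. There KPNA2 was at 2384 in RECK, 5885 in RECK/4NQ and 5627 in Zeo and KPNA3 at 72.8 in RECK, 107 in RECK/4NQ and 153 in Zeo.

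In the remaining lists with a measured member, each member lay above some or all of its partners. SNRNP40 was above 6 of 7 partners in the U5 particle (median -0.14), with DDX23 at 556 in RECK, 741 in RECK/4NQ and 778 in Zeo and CD2BP2 at 410 in RECK, 575 in RECK/4NQ and 571 in Zeo. YARS1 was above 13 of 16 other aminoacyl-tRNA synthetases (median -0.01), with FARSA at 2545 in RECK, 3114 in RECK/4NQ and 3639 in Zeo and HARS1 at 1950 in RECK, 2704 in RECK/4NQ and 2747 in Zeo. SRSF4 was above 5 of 7 other SR proteins (median -0.24), with SRSF5 at 364 in RECK, 577 in RECK/4NQ and 796 in Zeo and SRSF6 at 143 in RECK, 191 in RECK/4NQ and 243 in Zeo. PTP4A2 was above 1 and MARCKSL1 above all 3 of PTP4A1, PTP4A3 and MARCKS, with MARCKS at 25.8 in RECK, 5.08 in RECK/4NQ and 28.5 in Zeo and PTP4A1 at 353 in RECK, 269 in RECK/4NQ and 349 in Zeo. The median of the 3 measured YTH domain genes was -0.09, with YTHDF3 at 55.5 in RECK, 60.1 in RECK/4NQ and 73.5 in Zeo and YTHDC1 at 88.2 in RECK, 84.9 in RECK/4NQ and 107 in Zeo. For RECK over RECK/4NQ, which shares the RECK array, the 88 partners stood at -0.18 and the 11 members at 0.32. In that comparison 4 members lay below the median of their partners: YARS1 at -0.33 against -0.32, SRSF4 at -0.21 against -0.18, PTP4A2 at 0.02 against 0.69 and MARCKSL1 at 0.57 against 0.69. For RECK/4NQ over Zeo the 88 partners stood at 0.05 and the 11 members at 0.19, with SNRNP40 above 0 of its 7 partners.

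**Figure D4:**
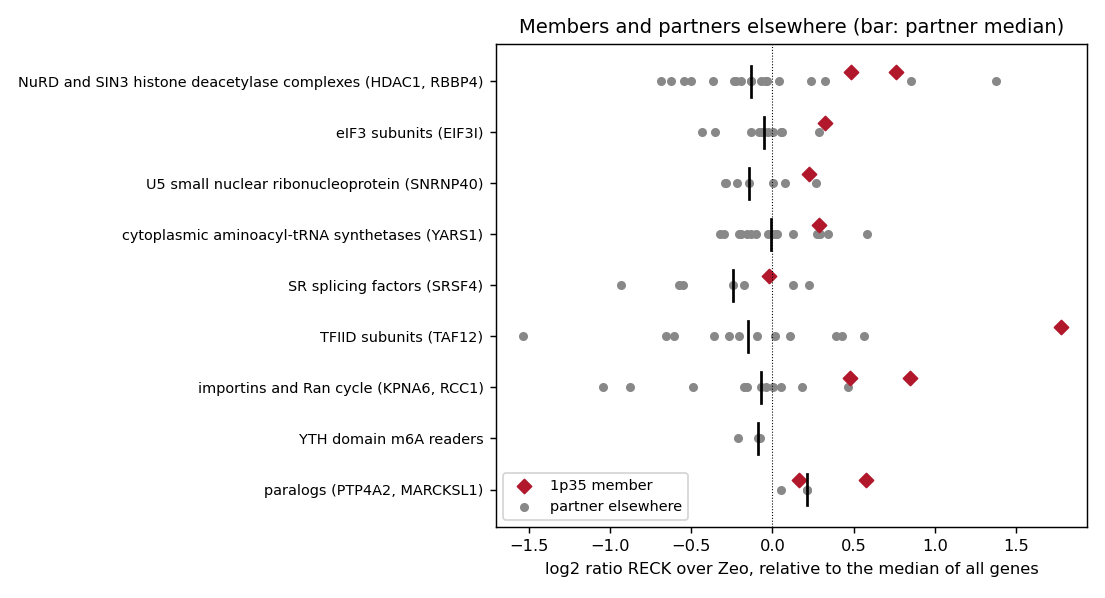
Log2 ratio of RECK over Zeo relative to the median of all genes (horizontal) for members of the block (red diamonds) and for genes of the same complex or family encoded elsewhere (grey points, with the partner median as a bar), by list. The members lie right of the partner median in every list that has a member except that of PTP4A2, at 0.16 against 0.21.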

How the data were processed

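Expression was measured on 1 Affymetrix array for each of 3 HT1080 lines. The authors deposited MAS5 signals, a linear intensity for each of 54675 probe sets. The submitters' processing notes name only MAS5. Its version and scaling target are not known here. MAS5 subtracts an estimate from mismatch probes, so dim signals are noisy. Values were used as deposited, with 62 control probe sets left out of gene results.

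Gene names came from the platform's annotation, for the 41097 probe sets with 1 symbol, and from the RefSeq table of GRCh38.p14, which also gave the order of genes. Signals were floored at 12.2 and compared as log2 ratios of the deposited intensity values. A level is the mean log2 signal over the arrays. Calculations used Python 3.11.15, pandas 2.3.3 and NumPy 2.4.6. The code for calls and medians was tried on simulated data whose ratios scattered less than those of these arrays. That trial therefore gives no error rate for the calls here. With 1 array per line no test was made.

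Named were all listed genes, with fold changes for the 10 highest and 5 lowest ratios of RECK over Zeo among genes that reached the floor on every array, the 5 nearest genes on each side, unlisted genes inside past 2-fold, and from each partner list the 2 largest ratios in either direction. The members, lists and comparisons were chosen with earlier results of these data known. The alternatives were median centring, quantile normalisation, floors at the 20th and 60th percentile, other choices of probe set, a fold of 1.5 and, added after the data were seen, level adjustment, unlisted genes and leaving out a run of genes.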

Additional observations from a re-analysis of the deposited data

How the results depend on the processing

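No paired analysis was possible because each line has 1 array. Over 12 settings the block's median log2 ratio relative to all genes stayed between 0.29 and 0.51 for RECK over Zeo, between 0.30 and 0.46 for RECK over RECK/4NQ and between 0.07 and 0.19 for RECK/4NQ over Zeo, with the lowest RECK over Zeo value, 0.29, from the mean of all probe sets. Members called higher with that mean numbered 4 against Zeo and 2 against RECK/4NQ for the RECK line, and 2, 2 and 1 in the 3 comparisons with the second brightest probe set, which 27 members have. A fold of 1.5 gave 14, 14 and 6, against 9.38%, 13.7% and 7.9% of all genes. For RECK/4NQ over Zeo median centring gave 5 and a floor at the 60th percentile 1. Except at 1.5-fold, the share of all genes called under each of these settings is not given here, so nothing is read from these counts. With the second brightest probe set 16 of 21 members lay above the median of all genes for RECK over Zeo. For the unlisted genes inside, RECK over Zeo was -0.28 with a floor at the 20th percentile, 0.28 at the 60th, -0.11 without shared probe sets and 1.37 with the second brightest (1 gene). RECK over RECK/4NQ was 0 with the mean and 1.11 with the second brightest. RECK/4NQ over Zeo was 0.10 after quantile normalisation, -0.21 at the 60th percentile, -0.14 without shared probe sets, 0.26 with the second brightest and 0.11 against genes of like level. After ZNF362 the flank was at 0.061 for RECK over Zeo with the mean, and for RECK/4NQ over Zeo at -0.042 without shared probe sets and -0.13 with the second brightest. Before RCC1 it was at -0.011 for RECK/4NQ over Zeo with the second brightest. Of the 9 partner lists the number with a median above 0 was, for RECK over RECK/4NQ, 1 with the 60th percentile floor, the mean or the second brightest and 4 without shared probe sets, for RECK over Zeo 4 without shared probe sets and 2 with the second brightest, and for RECK/4NQ over Zeo 6 without shared probe sets. The second brightest probe set turned the log2 ratio of RECK over RECK/4NQ to -0.93 for MATN1, -0.048 for SPOCD1 and -0.35 for LCK. With the mean, signals were floored before averaging, so genes below the floor were counted too. That setting covered 49 members, 15 unlisted genes inside and 30 genes after ZNF362. The background of all genes was widened in the same way. The mean setting thus changed which genes were counted as well as the probe sets used. Beyond this, the cause of the changes under these settings was not tested. Signals near the floor limit what can be said of dim genes.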
